A study of Homo sapiens with 6 samples.

Results

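Cells that divide build a spindle of microtubules, hold their chromosomes in check until each pair is attached, pull them apart and then divide the cell. Cyclins bound to CDK1 start this sequence, the Polo and Aurora kinases steer it, kinetochore proteins join chromosomes to microtubules, kinesins move along those microtubules, and the spindle checkpoint delays the anaphase-promoting complex until attachment is complete. Most of the genes are transcribed in G2 and M phase, so in a bulk sample their summed RNA follows how many cells are in those phases as well as how much each such cell holds, and these cannot be told apart here. The genes described are 56 mitotic genes chosen by symbol as a fixed list of kinases, kinesins, checkpoint, kinetochore and related factors. All 56 have a row among the 59609 gene names of the tables, and all 56 passed the filter of at least 1 FPKM (fragments scaled by transcript length and by mapped fragments of the library) in at least 1 library.

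The RNA came from 95D, a human lung cancer cell line labelled WT, kept for 48 h in glucose-free medium (2 libraries), in glutamine-free medium (1 library) or in control medium, the complete DMEM (2 libraries). The glucose-free and glutamine-free media each held 10% dialyzed serum, and the labels name dialyzed serum for these media alone, so removal of the nutrient and change of serum cannot be told apart in comparisons with control. Before the change of medium, cells of the experiment had been plated for 24 h. Whether replicates are separate cultures is not stated, so each p-value reflects the spread of these libraries alone, part of which may be technical. The lone glutamine-free library is assumed to vary like the others.

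Depth, inferred from steps of whole reads, was 34530000 to 48930000 reads per library, and the mitotic genes rested on 437 reads or more each, with a median of 2634 to 6098 reads per library. Total RNA was depleted of ribosomal RNA. Of 7 markers of lung epithelium, KRT18 held 16.0 to 21.7 FPKM and KRT8 4.15 to 5.51 FPKM in the 5 libraries, NKX2-1 held 0.709 to 1.17 FPKM, EPCAM, CDH1 and KRT7 held 0.250 FPKM or less and KRT19 was listed at 0. Of 17 markers of blood, vessel, stromal, liver, nerve and muscle cells, SYP and COL1A1 reached 1 FPKM. The 17 summed to 5.51 and 6.41 FPKM in the glucose-free libraries, 6.85 FPKM in the glutamine-free library and 4.22 and 5.24 FPKM in the controls, and their part in the results below was not tested.

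Levels below are FPKM after scaling between libraries. Fold changes are log2 values of FPKM + 1 with their standard error, and adjusted p-values are two-sided Benjamini-Hochberg values from limma over all 16600 genes tested, with a threshold of 0.05. Values of glucose-free replicates 1 and 2 and of control replicates 1 and 2 are given in that order.

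Without glucose, 53 of the 56 mitotic genes fell relative to control, 1 rose (NUF2) and 2 did not pass (NCAPG and NCAPH), while after scaling to the total 28 fell and 0 rose. Of all genes tested, 28.2% were called lower and 26.6% higher. Mitotic genes are fairly abundant, and 50 of the 56 averaged at least 10 FPKM. Among all genes that abundant, 52.4% were called lower and 21.4% higher, against 94.0% and 2.0% of these 50 mitotic genes. The median log2 fold change was -0.51 for the mitotic genes, 0.03 for all genes tested and -0.16 for the abundant ones. Levels were at least 2-fold lower on this scale in 5 genes: AURKA, KIF20A, CCNB1, HMMR and CDC20.

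Without glutamine, 46 mitotic genes fell relative to control, 5 rose (MKI67, ESPL1, CDC25B, FOXM1 and INCENP) and 5 did not pass (PLK1, TPX2, CDC25C, KIF4A and CENPF). After scaling to the total 5 fell and 5 rose, so the count of lower genes rests on the scaling. The 5 that still fell were AURKA, CCNA2, CCNB1, MAD2L1 and TTK. Of all genes tested, 26.4% were called lower and 24.7% higher, and among the abundant ones 64.7% and 10.7%, against 86.0% and 6.0% of the 50 abundant mitotic genes. The median log2 fold change was -0.46 for the mitotic genes, 0.05 for all genes and -0.31 for the abundant ones. Of the 56, 0 were at least 2-fold lower, and the lowest was MAD2L1 at -0.90.

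The scaling moved all genes together. Scaling to the total put the median of all genes at 0.11 without glucose, 0.30 without glutamine and 0.19 for glutamine-free against glucose-free cells. Of the genes called, 48.5% were higher without glucose with the scaling used, 54.1% as deposited, 59.9% after scaling to the upper quartile and 67.7% after scaling to the total. These shares were 48.4%, 67.4%, 68.2% and 91.1% without glutamine, and 50.5%, 68.2%, 62.5% and 85.5% between the deprivations. Relative to that median, the mitotic genes lay at -0.54 without glucose with the scaling used and at -0.51 after scaling to the total. Without glutamine these distances were -0.51 and -0.45. Each scaling divides all genes of a library by 1 factor, so this distance could hardly move, and its steadiness says nothing about which scaling is right. The distance moved more with other settings. With a trend on GC content and exon length removed it was -0.48 without glucose and -0.34 without glutamine. With a filter of a mean of at least 5 FPKM it was -0.42 and -0.26. After scaling to the total, 1 of the 56 fold changes had another sign without glucose and 12 without glutamine.

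The direct comparison of the 2 deprivations, with dialyzed serum on both sides, split the mitotic genes. In the glutamine-free library 24 were higher than in glucose-free cells, 9 were lower and 23 did not pass, and after scaling to the total 19 were higher and 0 lower. Of all genes tested, 22.5% were called higher and 22.0% lower. Among abundant genes these shares were 18.2% and 43.7%, against 42.0% and 18.0% of the 50 abundant mitotic genes. The share of the 56 called lower, 16.1%, was thus below that of all genes. The median log2 fold change was 0.15 for the mitotic genes, 0.01 for all genes and -0.13 for the abundant ones. The 9 lower genes were NCAPG, TTK, CDK1, NUF2, SMC2, MAD2L1, BUB3, ECT2 and ANLN. The comparisons share libraries, so their results are set side by side and not correlated.

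**Figure D1:**
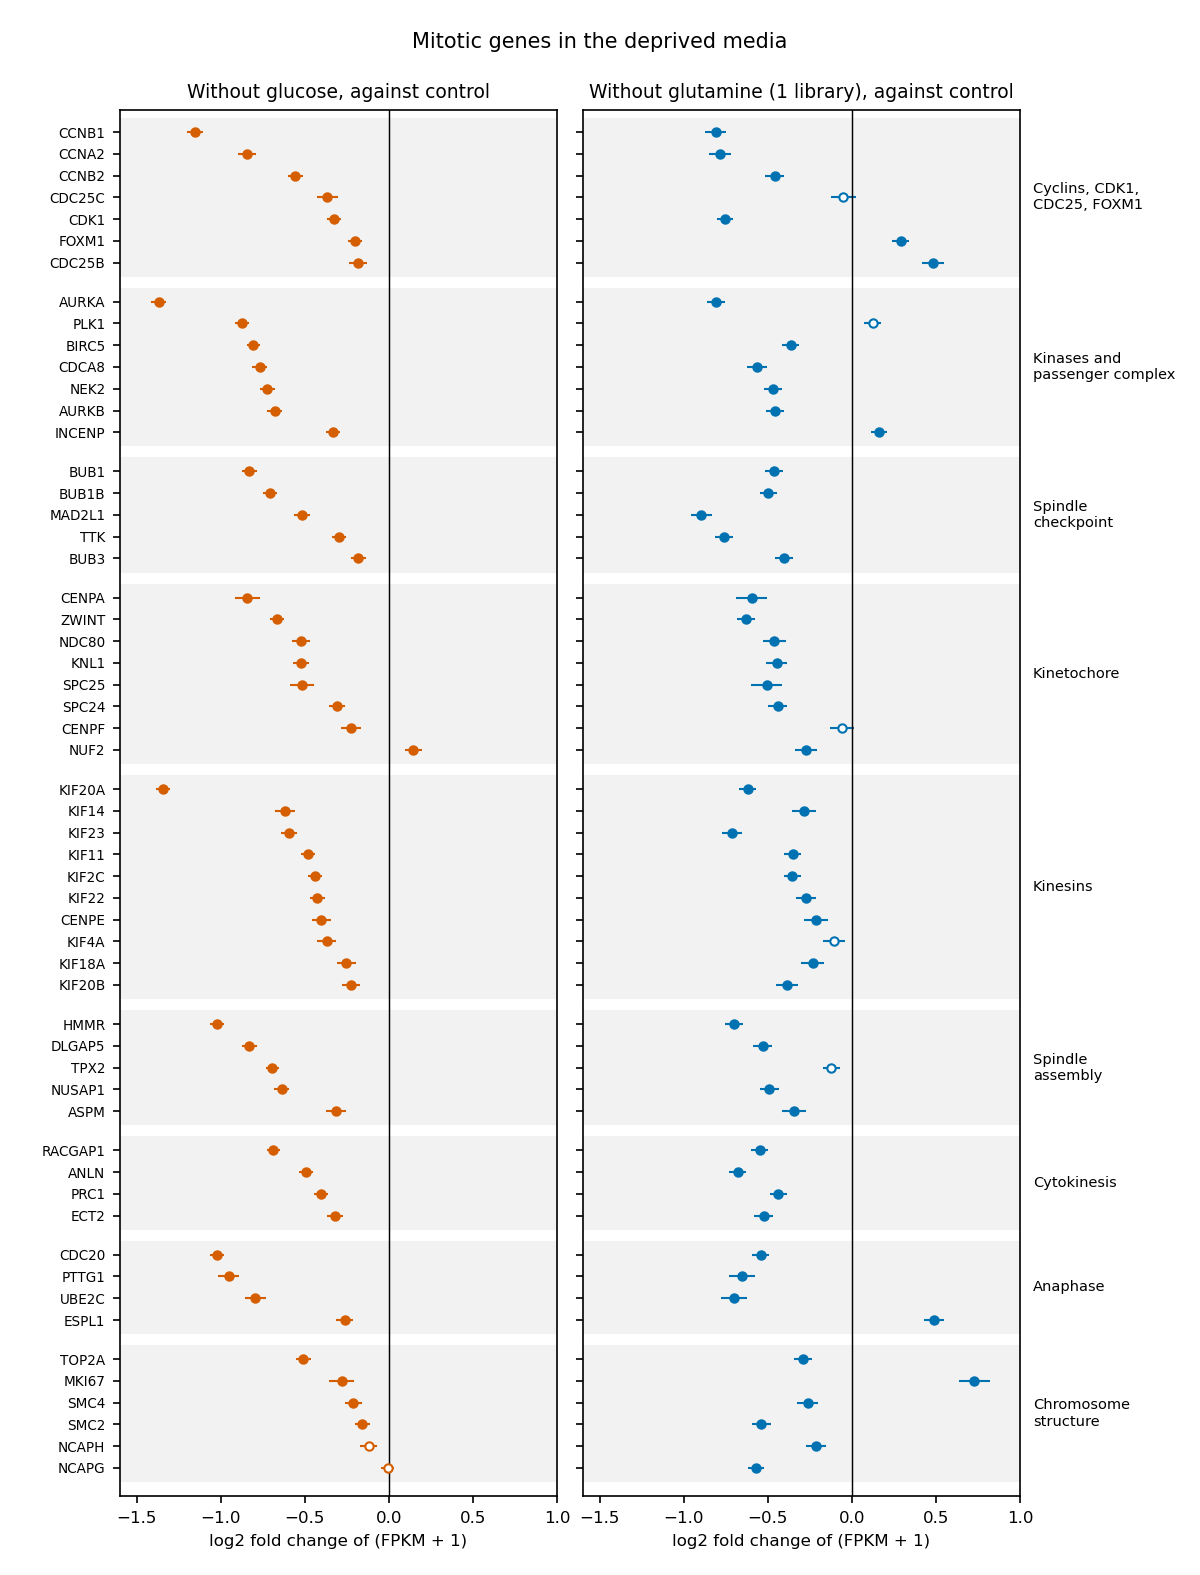
Log2 fold change of FPKM + 1 (x axis) of the 56 mitotic genes, grouped by role, in glucose-free (left) and glutamine-free cells (right, 1 library) against control. Points are estimates, bars are standard errors, and open points did not pass the threshold of 0.05. On the left all but NUF2 lie below 0. On the right MKI67, ESPL1, CDC25B, FOXM1 and INCENP lie above 0 and passed. After scaling to the total, which shifts all genes up, 8 of the filled points left of 0 on the right come to lie above it.

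Promoters of many mitotic genes carry a cell cycle homology region (CHR), the site bound by the DREAM complex that represses them in resting cells and by the MuvB complex with B-MYB and FOXM1 that activates them later, together with CCAAT boxes bound by NF-Y. RefSeq promoters (GRCh38.p14, 250 bases before to 50 after the start) were found for 47 of the 56 genes, with 61 starts in all. A CHR was searched as TTTGAA or TTTAAA and a CCAAT box as CCAAT, each on both strands. Of the 61 promoters, 75.4% held a CHR, 72.1% a CCAAT box and 57.4% both, beside 24.0%, 34.6% and 9.3% of all 35116 promoters of that length. In 2 of the 61 the motifs overlapped. Matches are a description of the letters and not of binding. The 9 genes without a promoter in the table are AURKA, BIRC5, BUB3, FOXM1, KNL1, RACGAP1, TPX2, TTK and UBE2C.

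The 6 promoter windows shown run from 120 bases before the RefSeq start to the base before it, on the gene's strand, with CHR and CCAAT matches of either strand in capitals. CCNB1, CDC20 and KIF20A are among the genes that fell most without glucose, PLK1 and MKI67 differ most between the deprivations, and NCAPG fell without glutamine and had a log2 fold change of -0.01 without glucose. For some of these genes GENCODE release 29 also places transcript starts inside the window.
CCNB1, chr5:69167030-69167149, plus strand: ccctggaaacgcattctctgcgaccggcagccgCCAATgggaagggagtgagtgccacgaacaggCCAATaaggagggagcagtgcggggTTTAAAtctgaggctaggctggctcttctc
CDC20, chr1:43358861-43358980, plus strand: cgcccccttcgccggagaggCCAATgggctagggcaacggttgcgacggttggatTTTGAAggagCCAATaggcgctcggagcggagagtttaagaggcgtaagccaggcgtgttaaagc
KIF20A, chr5:138178992-138179111, plus strand: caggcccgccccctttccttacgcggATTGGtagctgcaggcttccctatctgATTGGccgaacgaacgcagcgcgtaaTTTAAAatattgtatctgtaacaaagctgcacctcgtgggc
PLK1, chr16:23678769-23678888, plus strand: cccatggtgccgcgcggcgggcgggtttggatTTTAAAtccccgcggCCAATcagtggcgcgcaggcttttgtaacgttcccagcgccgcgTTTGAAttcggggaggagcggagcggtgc
MKI67, chr10:128126424-128126543, minus strand: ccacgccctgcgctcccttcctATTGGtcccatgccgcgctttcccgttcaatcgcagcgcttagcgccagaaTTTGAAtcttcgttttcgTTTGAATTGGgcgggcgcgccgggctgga
NCAPG, chr4:17810859-17810978, plus strand: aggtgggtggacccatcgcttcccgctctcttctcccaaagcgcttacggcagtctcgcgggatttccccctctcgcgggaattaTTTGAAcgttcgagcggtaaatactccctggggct
All 6 windows hold a CHR, and 5 of them also hold 1 or 2 CCAAT boxes. The NCAPG window holds no match to CCAAT. In the MKI67 window 1 CHR and 1 CCAAT match overlap in the run of 10 capitals. The windows of genes that fell without both nutrients and of PLK1 and MKI67, which were not called lower without glutamine, hold the same 2 motifs. Over the 47 genes, the 32 with both motifs at any start had a median log2 fold change of -0.51 without glucose, -0.45 without glutamine and 0.21 between the deprivations, beside -0.44, -0.46 and 0.06 for the other 15.

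**Figure D2:**
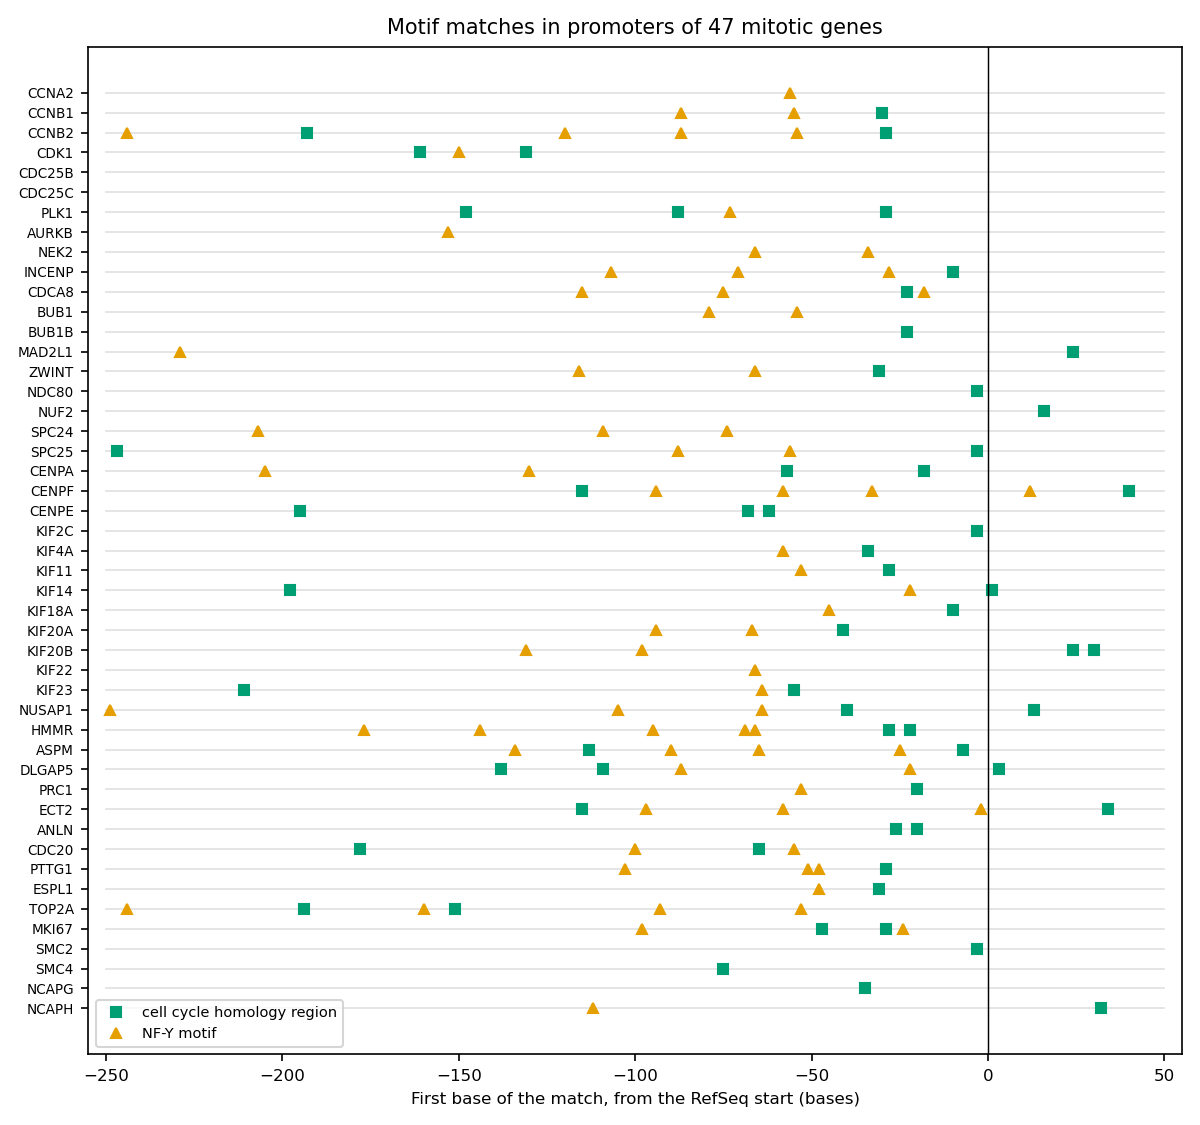
Position of the first base of each match (x axis, bases from the RefSeq start, at 0) in the promoters of the 47 mitotic genes with an entry, 1 start per gene. Squares are CHR matches and triangles CCAAT boxes, the NF-Y motif, on either strand. Of 61 CHR matches 35 begin in the last 100 bases before the start, as do 52 of 75 CCAAT matches, and the median position is -30 for the CHR and -74 for CCAAT.

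Cyclins and the factors that switch on CDK1 come first in the sequence. Without glucose all 7 fell, CCNB1 most at -1.15 ± 0.05 (adjusted p = 5.26e-06) and CDC25B least at -0.18 ± 0.05 (0.0205). Without glutamine 4 of 7 fell, 2 rose and 1 did not pass. CCNB1, the cyclin B1 that carries CDK1 into mitosis and was the most abundant of the 7, held 38.6 and 41.4 FPKM without glucose and 51.0 FPKM without glutamine, against 87.9 and 92.4 FPKM in controls. Both deprivations lay well below the controls, and glucose-free cells were lowest. Its log2 fold change without glutamine was -0.81 ± 0.06 (adjusted p = 5.33e-05), and the glutamine-free library lay 0.34 ± 0.06 above glucose-free cells (0.00301). CDK1, the kinase itself, had the opposite order. It held 33.9 and 33.5 FPKM without glucose and 24.8 FPKM without glutamine, against 42.2 and 42.8 FPKM in controls. The log2 fold change was -0.33 ± 0.04 without glucose (adjusted p = 0.000303) and -0.76 ± 0.05 without glutamine (3.53e-05), and the difference between the deprivations was -0.43 ± 0.05 (0.000412). CCNA2, cyclin A2, fell by a like amount in both, at -0.84 ± 0.05 and -0.78 ± 0.07, and CCNB2, cyclin B2, at -0.56 ± 0.05 and -0.46 ± 0.06.

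The phosphatase CDC25B, which removes inhibitory phosphates from CDK1, held 7.92 and 8.40 FPKM without glucose and 13.5 FPKM without glutamine, against 9.68 and 9.10 FPKM in controls. The glutamine-free library was above every other, with a log2 fold change of 0.48 ± 0.06 against control (adjusted p = 0.000596) and 0.66 ± 0.06 against glucose-free cells (0.000234). FOXM1, a transcription factor that activates G2 and M genes, had 12.5 and 12.4 FPKM without glucose and 17.9 FPKM without glutamine, against 14.3 and 14.5 FPKM in controls. It fell by 0.20 on the log2 scale without glucose (adjusted p = 0.00467) and rose by 0.29 without glutamine (0.00226). CDC25C, the other phosphatase, fell without glucose at -0.37 ± 0.06 (adjusted p = 0.00162) and had -0.05 ± 0.08 without glutamine (0.601). The lower call of CDC25B without glucose was lost without control replicate 1, control replicate 2 or glucose-free replicate 1 (adjusted p = 0.15, 0.0577 and 0.106). That of FOXM1 was lost without control replicate 2 (0.0535), and the difference of CDC25C between the deprivations without glucose-free replicate 2 (0.0646). FOXM1 shares 15.9% of its exon bases with ITFG2 on the opposite strand, and no source used here gives the strand setting.

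The mitotic kinases and the chromosomal passenger complex had the highest median difference between the deprivations of the 9 roles, 0.44 on the log2 scale. Without glucose all 7 fell, without glutamine 5 fell, 1 rose and 1 did not pass, and all 7 were higher in the glutamine-free library than in glucose-free cells. AURKA, Aurora kinase A of the spindle poles, was the lowest of all 56 genes without glucose. It held 14.9 and 15.5 FPKM there and 22.9 FPKM without glutamine, against 40.2 and 41.5 FPKM in controls. The log2 fold changes were -1.37 ± 0.04 (adjusted p = 2.26e-06) and -0.81 ± 0.05 (3.97e-05), and the libraries of the 3 media did not overlap. Its copy AURKAP1, between which and AURKA reads could be split, reached 3.85 FPKM. PLK1, Polo-like kinase 1, held 10.8 and 10.4 FPKM without glucose and 22.2 FPKM without glutamine, against 20.5 and 20.1 FPKM in controls. The glutamine-free library lay slightly above the controls and both glucose-free libraries far below. PLK1 fell without glucose at -0.87 ± 0.04 (adjusted p = 7.83e-06), had 0.12 ± 0.05 without glutamine (0.0871), and differed between the deprivations by 1.00 ± 0.05 (3.43e-05).

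BIRC5 (survivin), CDCA8 (borealin) and INCENP form the passenger complex with the kinase AURKB. BIRC5, the most abundant of the group, held 28.3 and 28.9 FPKM without glucose and 39.2 FPKM without glutamine, against 50.1 and 51.5 FPKM in controls, with the media in the same order as for AURKA. CDCA8 held 13.5 and 14.1 FPKM without glucose and 16.1 FPKM without glutamine, against 24.2 and 24.3 FPKM in controls. INCENP, the scaffold of the complex, stood apart from its partners. It held 15.8 and 15.9 FPKM without glucose and 22.7 FPKM without glutamine, against 20.3 and 20.0 FPKM in controls, with log2 fold changes of -0.33 ± 0.04 (adjusted p = 0.000336) and 0.16 ± 0.05 (0.0281). AURKB had -0.68 ± 0.04 and -0.46 ± 0.05, and NEK2, a kinase of the centrosome, -0.72 ± 0.04 and -0.47 ± 0.05. The rise of INCENP without glutamine was lost without control replicate 1 or 2 (adjusted p = 0.127 and 0.171), and the difference of CDCA8 between the deprivations without control replicate 1, control replicate 2 or glucose-free replicate 1 (0.0757, 0.0779 and 0.0603).

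**Figure D3:**
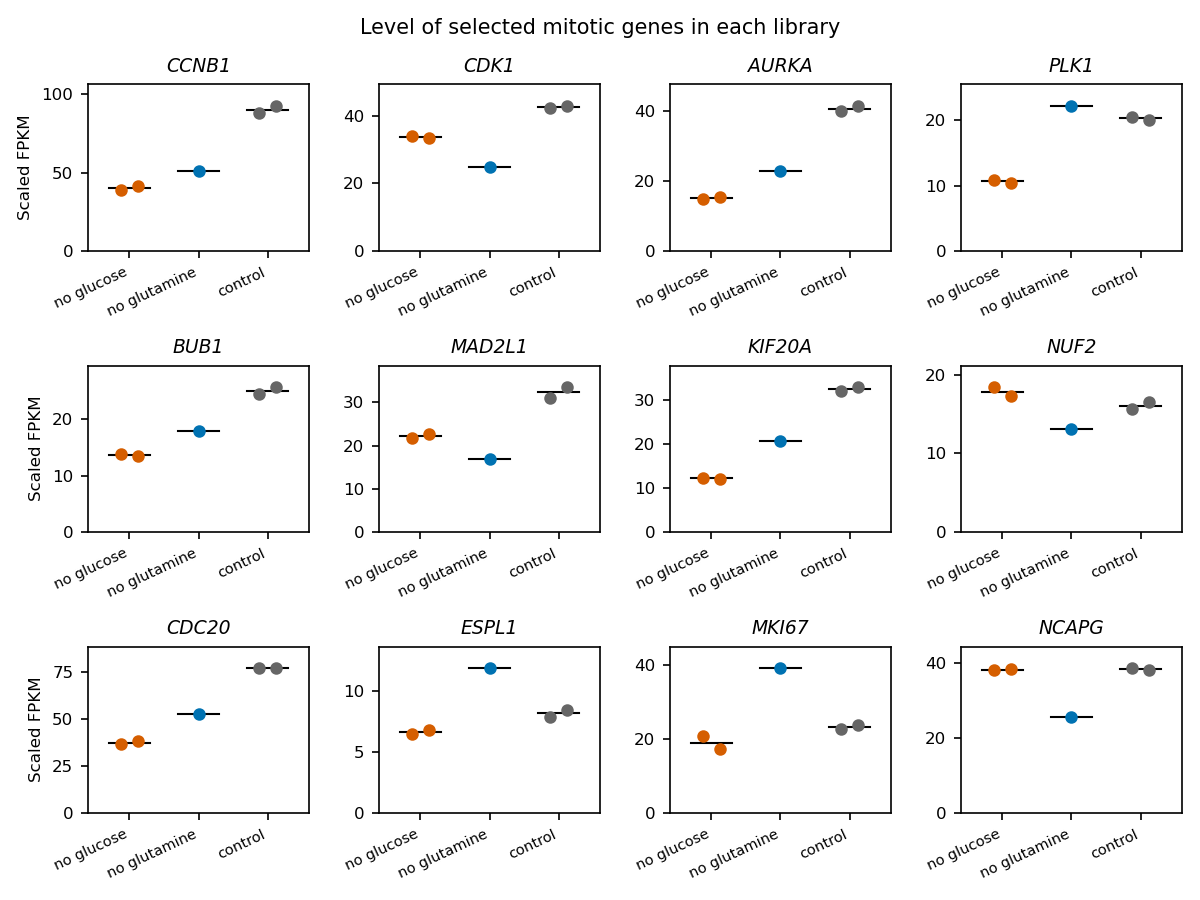
Scaled FPKM (y axis, from 0) of 12 mitotic genes in each library, with glucose-free cells (2 libraries), glutamine-free cells (1 library) and controls (2 libraries) from left to right. Points are libraries and horizontal lines are group means. AURKA has 14.9 and 15.5, 22.9, and 40.2 and 41.5 FPKM in the 3 media, MKI67 is highest without glutamine at 39.0 FPKM, and NCAPG is low without glutamine alone, at 25.6 FPKM.

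All 5 spindle checkpoint genes fell in both deprivations, but not in the same proportion. After scaling to the total, the lower calls of BUB1, BUB1B and BUB3 without glutamine were lost, as were those of BUB3 and TTK without glucose. Between the deprivations 0 of the 56 then passed as lower, so those calls of MAD2L1, TTK and BUB3 were lost too. BUB1, a kinase that recruits checkpoint proteins to kinetochores, held 13.8 and 13.6 FPKM without glucose and 18.0 FPKM without glutamine, against 24.5 and 25.7 FPKM in controls. MAD2L1, the MAD2 protein that binds CDC20 and holds back anaphase, held 21.8 and 22.7 FPKM without glucose and 16.9 FPKM without glutamine, against 31.1 and 33.5 FPKM in controls. BUB1 was lowest without glucose and MAD2L1 lowest without glutamine, and neither gene overlapped between media. BUB1 had log2 fold changes of -0.83 ± 0.04 and -0.46 ± 0.05 against control, and MAD2L1 of -0.52 ± 0.05 and -0.90 ± 0.06. The difference between the deprivations was 0.37 ± 0.05 for BUB1 (adjusted p = 0.00115) and -0.38 ± 0.06 for MAD2L1 (0.00181).

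TTK, the MPS1 kinase that starts the checkpoint signal, went with MAD2L1. It held 21.2 and 20.6 FPKM without glucose and 14.8 FPKM without glutamine, against 26.4 and 25.4 FPKM in controls, and differed between the deprivations by -0.47 ± 0.05 (adjusted p = 0.000419). BUB3, the most abundant of the 5 and the partner of BUB1 and BUB1B, held 26.6 and 27.1 FPKM without glucose and 22.9 FPKM without glutamine, against 29.8 and 31.4 FPKM in controls. BUB1B, the checkpoint protein BUBR1, went with BUB1, at -0.71 ± 0.04 and -0.50 ± 0.05 against control and 0.21 ± 0.05 between the deprivations (adjusted p = 0.0122). The last of these was lost without control replicate 1 or 2 (0.0572 and 0.0591). The lower call of BUB3 without glucose, at -0.18 ± 0.04, was lost without control replicate 2 or glucose-free replicate 1 (0.0953 and 0.0501).

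Of the 8 kinetochore genes, 7 fell and NUF2 rose without glucose, and 7 fell and CENPF did not pass without glutamine, where after scaling to the total NUF2 and CENPF lay above 0. Between the deprivations NUF2 alone passed. ZWINT, which links the checkpoint to the outer kinetochore, held 37.5 and 36.2 FPKM without glucose and 37.7 FPKM without glutamine, against 59.7 and 58.2 FPKM in controls. Both deprivations lay below the controls, at -0.67 ± 0.04 (adjusted p = 1.79e-05) and -0.63 ± 0.05 (7.26e-05). CENPA, the histone H3 variant that marks centromeres, held 5.90 and 6.73 FPKM without glucose and 7.65 FPKM without glutamine, against 11.7 and 12.5 FPKM in controls. CENPF, a large kinetochore and matrix protein and the most abundant of the group, held 48.4 and 44.0 FPKM without glucose and 51.9 FPKM without glutamine, against 52.1 and 56.2 FPKM in controls, and had -0.23 ± 0.06 (adjusted p = 0.0135) and -0.06 ± 0.07 (0.523).

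NUF2, SPC24, SPC25 and NDC80 are the 4 subunits of the NDC80 complex, which grips microtubules. NUF2 held 18.5 and 17.3 FPKM without glucose and 13.1 FPKM without glutamine, against 15.6 and 16.5 FPKM in controls. NDC80 held 7.49 and 7.16 FPKM without glucose and 7.69 FPKM without glutamine, against 10.6 and 11.3 FPKM in controls. Without glucose the log2 fold changes of the subunits were 0.15 ± 0.05 for NUF2 (adjusted p = 0.0441), -0.31 ± 0.05 for SPC24 (0.000943), -0.52 ± 0.07 for SPC25 (0.000679) and -0.52 ± 0.05 for NDC80 (0.000142). Without glutamine they were -0.27 ± 0.06 for NUF2 (0.0083), -0.44 ± 0.06 for SPC24 (0.000489), -0.51 ± 0.09 for SPC25 (0.0023) and -0.46 ± 0.07 for NDC80 (0.000822). KNL1, the platform of BUB1 binding, had -0.52 ± 0.05 and -0.45 ± 0.06. The rise of NUF2 had the largest adjusted p of the calls without glucose. It was lost without control replicate 1, control replicate 2 or glucose-free replicate 1 (adjusted p = 0.315, 0.115 and 0.162), and its fall without glutamine was lost without control replicate 2 (0.0709) and came to 0.010 once a trend on GC content and exon length, chosen after seeing the data, was removed from each library. The lower call of CENPF without glucose was lost without control replicate 1, control replicate 2 or glucose-free replicate 2 (0.0562, 0.153 and 0.106), and CENPA passed between the deprivations without glucose-free replicate 2 (0.0431).

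All 10 mitotic kinesins fell without glucose, and 9 fell without glutamine with KIF4A not passing, while after scaling to the total CENPE, KIF14, KIF18A, KIF22 and KIF4A lay above 0 without glutamine. KIF20A (MKLP2), which carries the passenger complex to the midzone, led the group. It held 12.3 and 12.0 FPKM without glucose and 20.7 FPKM without glutamine, against 32.0 and 32.8 FPKM in controls, and the media did not overlap. The log2 fold changes were -1.34 ± 0.04 (adjusted p = 1.86e-06) and -0.62 ± 0.05 (7.26e-05), and the deprivations differed by 0.72 ± 0.05 (7.82e-05). KIF23 (MKLP1), its partner kinesin of the midzone, held 12.7 and 12.5 FPKM without glucose and 11.5 FPKM without glutamine, against 18.8 and 20.2 FPKM in controls, the lowest of the group without glutamine at -0.71 ± 0.06 (7.05e-05). KIF11 (Eg5), which pushes the spindle poles apart and was the most abundant, held 26.8 and 26.0 FPKM without glucose and 29.0 FPKM without glutamine, against 37.5 and 37.1 FPKM in controls.

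KIF20B, a kinesin of cytokinesis, was the least lowered without glucose. It held 18.2 and 16.4 FPKM there and 15.4 FPKM without glutamine, against 20.0 and 20.8 FPKM in controls. KIF4A, a chromokinesin, held 15.5 and 15.1 FPKM without glucose and 18.5 FPKM without glutamine, against 19.1 and 21.1 FPKM in controls, and had -0.37 ± 0.05 (adjusted p = 0.000784) and -0.11 ± 0.07 (0.208). The other 5 kinesins lay between -0.62 and -0.25 without glucose and between -0.36 and -0.21 without glutamine: KIF2C (MCAK, which takes microtubules apart), CENPE (which carries chromosomes to the equator), KIF18A (which dampens their oscillation), KIF22 (the chromokinesin Kid) and KIF14 (a partner of PRC1 in cytokinesis). Besides KIF20A, KIF14 at 0.33 ± 0.07 and KIF4A at 0.26 ± 0.07 were higher in the glutamine-free library than in glucose-free cells (adjusted p = 0.00768 and 0.0143). Several of the smaller calls rested on single libraries. Without control replicate 2 the lower calls of KIF18A and KIF20B without glucose were lost (0.0698 and 0.107), as was that of KIF20B without control replicate 1 (0.0611) or glucose-free replicate 2 (0.0537). Without control replicate 1 the lower calls without glutamine of CENPE, KIF14, KIF18A and KIF22 were lost (0.114, 0.0615, 0.0528 and 0.0569), and those of the first 3 also without control replicate 2 (0.192, 0.105 and 0.118). Between the deprivations, KIF4A was lost without glucose-free replicate 1 or 2 (0.0572 and 0.086), CENPE passed without replicate 1 (0.0219) and KIF20B without replicate 2 (0.0304).

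The 5 spindle assembly genes all fell without glucose, and 4 fell without glutamine with TPX2 not passing, where after scaling to the total TPX2 lay above 0. TPX2, the activator of AURKA on spindle microtubules and the most abundant of the 5, held 44.0 and 42.6 FPKM without glucose and 64.7 FPKM without glutamine, against 71.0 and 70.2 FPKM in controls. It fell without glucose at -0.69 ± 0.04 (adjusted p = 1.32e-05), had -0.12 ± 0.05 without glutamine (0.0706) and differed between the deprivations by 0.57 ± 0.05 (0.000149). HMMR, a microtubule-binding partner of TPX2, held 11.0 and 11.0 FPKM without glucose and 14.0 FPKM without glutamine, against 23.2 and 23.6 FPKM in controls, the lowest of the group in both. ASPM, a spindle pole protein, held 34.1 and 31.2 FPKM without glucose and 31.9 FPKM without glutamine, against 39.3 and 42.4 FPKM in controls, at -0.31 ± 0.06 and -0.34 ± 0.07. DLGAP5 (HURP), which stabilizes kinetochore fibres, had -0.83 ± 0.04 and -0.53 ± 0.05. NUSAP1, which bundles microtubules near chromosomes, had -0.64 ± 0.05 and -0.49 ± 0.06, but 62.2% of its exon bases are also those of AC087721.2 on the same strand, so its value is uncertain. The lower calls of ASPM without glucose and without glutamine were lost without control replicate 2 (0.0553 and 0.0615).

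All 4 cytokinesis genes fell in both deprivations. After scaling to the total their lower calls without glutamine were lost, as were those of PRC1, ECT2 and ANLN without glucose. PRC1, which cross-links the central spindle and was the most abundant, held 35.4 and 34.4 FPKM without glucose and 34.1 FPKM without glutamine, against 46.1 and 46.8 FPKM in controls, with the deprivations close together. It shares 57.6% of its exon bases with AC068831.7 on the same strand, so its value is uncertain. RACGAP1, which with KIF23 forms centralspindlin, held 17.1 and 16.8 FPKM without glucose and 18.7 FPKM without glutamine, against 27.4 and 28.2 FPKM in controls, at -0.69 ± 0.04 and -0.55 ± 0.05. ECT2, the exchange factor that activates RhoA at the cleavage furrow, held 30.1 and 28.6 FPKM without glucose and 25.4 FPKM without glutamine, against 36.1 and 37.9 FPKM in controls. ANLN (anillin), a scaffold of the contractile ring, held 31.1 and 31.0 FPKM without glucose and 27.2 FPKM without glutamine, against 43.1 and 45.3 FPKM in controls, at -0.50 ± 0.04 and -0.68 ± 0.05. ECT2 and ANLN were lower in the glutamine-free library than in glucose-free cells, at -0.20 ± 0.06 (adjusted p = 0.0208) and -0.18 ± 0.05 (0.0215), though after scaling to the total ANLN lay at 0.01. These 2 differences were small: ANLN was lost without any 1 of the 4 other libraries (0.0537 to 0.0644), and ECT2 without either control (0.0658 and 0.0674) or without glucose-free replicate 1 (0.0653).

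Of the 4 genes of anaphase onset, all fell without glucose, and without glutamine 3 fell and ESPL1 rose. After scaling to the total the lower calls of CDC20, UBE2C and PTTG1 without glutamine were lost, as was that of ESPL1 without glucose. The rise of ESPL1 without glutamine kept its call. CDC20, which activates the anaphase-promoting complex and was the most abundant, held 36.7 and 38.2 FPKM without glucose and 52.7 FPKM without glutamine, against 77.2 and 77.2 FPKM in controls. It had -1.02 ± 0.04 (adjusted p = 4.33e-06) and -0.54 ± 0.05 (0.000116), with no overlap between media. UBE2C, the ubiquitin-conjugating enzyme of that complex, held 39.0 and 44.3 FPKM without glucose and 44.5 FPKM without glutamine, against 71.4 and 74.4 FPKM in controls. ESPL1 (separase), the protease that opens cohesin rings, held 6.49 and 6.76 FPKM without glucose and 11.8 FPKM without glutamine, against 7.86 and 8.44 FPKM in controls. Its inhibitor PTTG1 (securin), a target of CDC20, had 22.7 and 23.4 FPKM without glucose and 28.5 FPKM without glutamine, against 48.5 and 42.7 FPKM in controls. Without glutamine the protease rose, at 0.49 ± 0.06 (adjusted p = 0.000383), and the inhibitor fell, at -0.66 ± 0.08 (0.000301), while without glucose both fell, at -0.26 ± 0.05 and -0.95 ± 0.06. The difference of PTTG1 between the deprivations was lost without glucose-free replicate 1 or 2 (0.0957 and 0.0727).

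Chromosome structure genes had the median nearest 0 of the 9 roles without glucose, -0.18. Without glucose 4 of 6 fell and 2 did not pass, and without glutamine 5 fell and MKI67 rose, while after scaling to the total TOP2A, SMC4 and NCAPH lay above 0. MKI67 encodes Ki-67, the coat protein of mitotic chromosomes that is used to stain dividing cells. It held 20.6 and 17.3 FPKM without glucose and 39.0 FPKM without glutamine, against 22.6 and 23.7 FPKM in controls. The glutamine-free library was highest, at 0.73 ± 0.09 against control (adjusted p = 0.00041) and 1.01 ± 0.09 against glucose-free cells (0.00017), the largest value of the 56 in both. TOP2A, the topoisomerase that untangles sister chromosomes and the most abundant of all 56, held 81.1 and 80.3 FPKM without glucose and 94.1 FPKM without glutamine, against 113 and 117 FPKM in controls. MKI67 and TOP2A are both used as markers of proliferation, and without glutamine they moved in opposite directions with the scaling used.

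Of the 4 condensin subunits in this role, NCAPG and SMC2 passed as lower in the glutamine-free library than in glucose-free cells. NCAPD2, NCAPD3, NCAPG2 and NCAPH2 are further subunits, from the related lists below. NCAPD2 went the other way, with 27.8 and 28.1 FPKM without glucose and 40.6 FPKM without glutamine, against 37.0 and 36.3 FPKM in controls. NCAPH2 was lower without glutamine, at 12.4 FPKM against 14.0 and 14.8 FPKM without glucose. NCAPD3 was slightly higher, at 13.1 FPKM against 12.6 and 12.3 FPKM. NCAPG2 lay between, at 18.0 FPKM against 18.3 and 17.2 FPKM. NCAPG, a subunit of condensin I, held 38.3 and 38.3 FPKM without glucose and 25.6 FPKM without glutamine, against 38.7 and 38.3 FPKM in controls. It had -0.01 ± 0.04 without glucose (adjusted p = 0.907), -0.57 ± 0.05 without glutamine (7.52e-05) and -0.56 ± 0.05 between the deprivations (0.000136), so that glucose-free and control libraries overlapped and the glutamine-free one lay below. NCAPG shares 33.1% of its exon bases with LCORL on the opposite strand. SMC2, an ATPase of both condensins, held 25.3 and 23.9 FPKM without glucose and 18.7 FPKM without glutamine, against 27.3 and 27.9 FPKM in controls, and differed between the deprivations by -0.38 ± 0.05 (0.00115). Its partner SMC4 had -0.21 ± 0.05 and -0.26 ± 0.06, and the kleisin NCAPH -0.12 ± 0.05 (0.0707) and -0.22 ± 0.06 (0.019). The fall of MKI67 without glucose was lost without control replicate 1, control replicate 2 or glucose-free replicate 2 (0.0854, 0.143 and 0.0574), as were those of SMC2 (0.087, 0.126 and 0.0771) and SMC4 (0.075, 0.106 and 0.0508). Without glutamine, SMC4 was lost without control replicate 1 or 2 (0.0654 and 0.0893) and NCAPH without control replicate 2 (0.103), and TOP2A was lost between the deprivations without control replicate 1 or 2 (0.0638 and 0.0649).

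**Figure D4:**
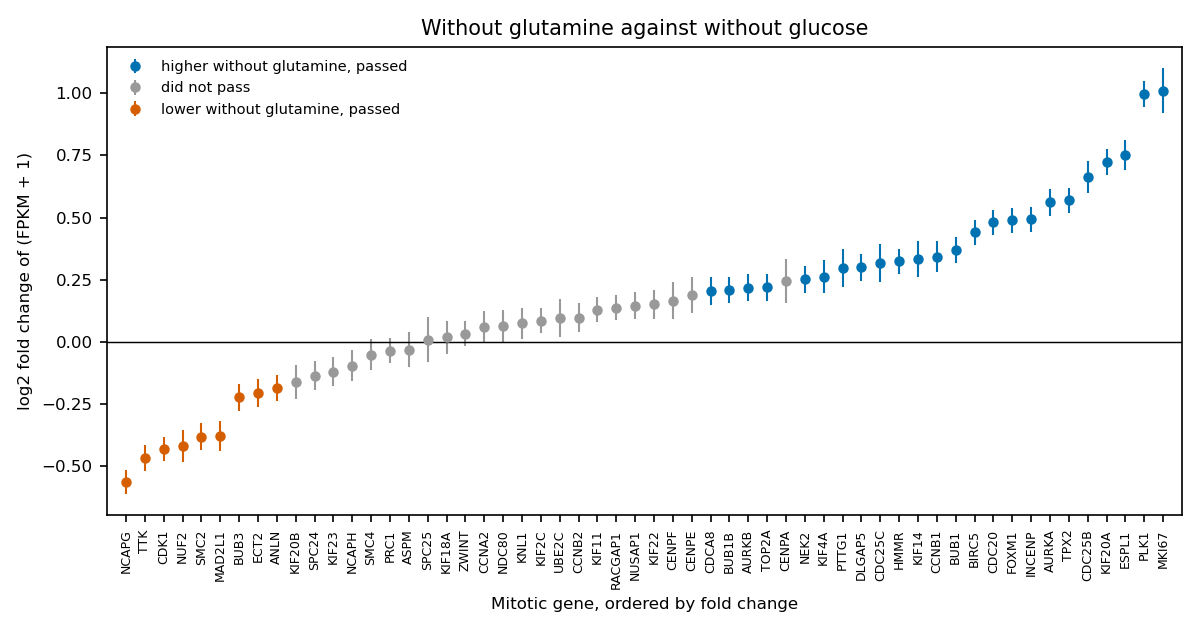
Log2 fold change of FPKM + 1 (y axis) of the glutamine-free library against glucose-free cells for the 56 mitotic genes, ordered by value (x axis). Points are estimates and bars standard errors. The 24 genes that passed and were higher run up to PLK1 at 1.00 and MKI67 at 1.01, and the 9 that passed and were lower run down to NCAPG at -0.56. After scaling to the total the plot shifts up and 0 genes pass as lower.

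By their calls over the 3 comparisons, the largest set, 21 genes, fell in both deprivations with no passing difference between them, among them CCNA2, ZWINT, KIF11, PRC1 and UBE2C. Another 15 fell in both and were lower without glucose, among them CCNB1, AURKA, BUB1, KIF20A, CDC20 and TOP2A, and 7 fell in both and were lower without glutamine: CDK1, BUB3, MAD2L1, TTK, ECT2, ANLN and SMC2. CDC25B, FOXM1, INCENP, ESPL1 and MKI67 fell without glucose and rose without glutamine, and PLK1, TPX2, CDC25C and KIF4A fell without glucose and did not pass without glutamine. The remaining 4 were NUF2, NCAPG, NCAPH and CENPF. The shares of all genes with the same joint calls are not given here. Among abundant genes 52.4% were called lower without glucose and 64.7% without glutamine, so falls in each deprivation were common among them. How many abundant genes fell in both does not follow from these shares, so the joint counts stand without a background.

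These patterns went with base composition, measured as the percent G and C of the longest GENCODE transcript. In the direct comparison, Pearson's r between GC and log2 fold change was 0.57 over the 56 mitotic genes and 0.23 over 15952 genes with a known sequence. Without glutamine against control r was 0.42 and 0.18, and without glucose -0.17 and -0.03. Genes share libraries and are not independent replicates, and these values are descriptions. Of the 24 mitotic genes over 45% GC, 16 were higher and 0 lower in the glutamine-free library than in glucose-free cells. Of the 17 under 40% GC, 4 were higher and 6 lower. The shares of all genes called in these classes of GC are not given here, so the counts stand without a background. Without glutamine all 5 genes that rose were among the 24. All genes of the table showed the same slope in a weaker form, with a median of 0.09 over 45% GC and -0.13 under 40% in the direct comparison. After a trend on GC and exon length was removed from each library, 43 mitotic genes fell and 5 rose without glutamine, 35 were higher and 7 lower in the direct comparison, and 52 fell and 1 rose without glucose. Exon length gave r of 0.47 with the fold change without glucose and 0.42 without glutamine over the mitotic genes, and -0.14 in each over all genes. The correction was chosen after seeing the data, and the part of GC and length in the results was not tested further.

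**Figure D5:**
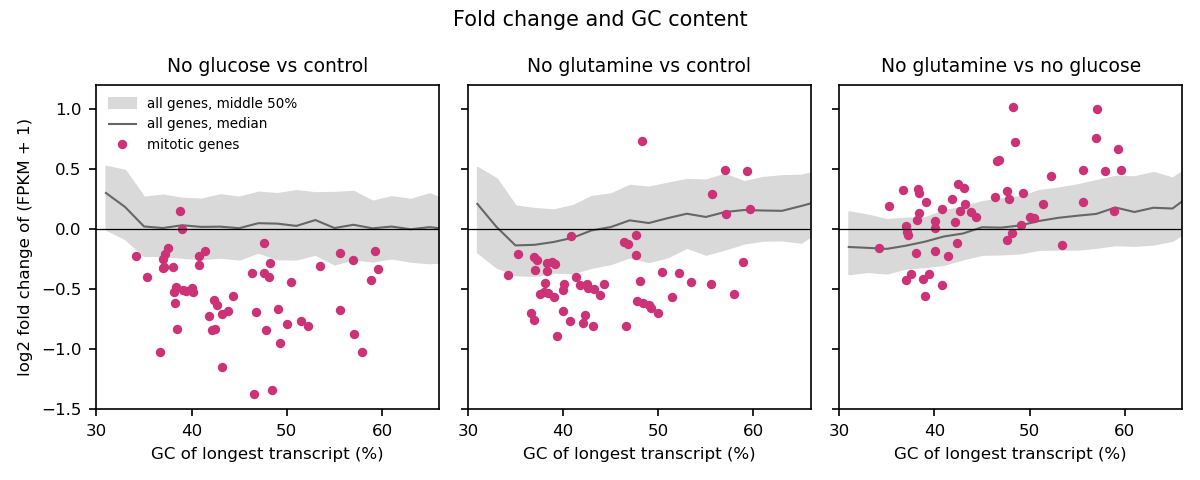
Log2 fold change of FPKM + 1 (y axis) against GC content of the longest transcript in percent (x axis) for the 56 mitotic genes (points), over the median and the middle 50% of all genes in steps of GC (line and band). Glucose-free against control is on the left, glutamine-free against control in the middle, glutamine-free against glucose-free on the right. Points over 45% GC lie at a median of 0.31 on the right and those under 40% at -0.03.

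Lists of related genes, chosen by symbol, are set beside the same shares of all genes given above (28.2% lower and 26.6% higher without glucose, 26.4% and 24.7% without glutamine, 22.0% and 22.5% between the deprivations). Of 40 further mitotic genes, 29 fell and 6 rose without glucose and 26 fell and 2 rose without glutamine, against 16 and 4, and 0 and 2, after scaling to the total. Without glucose FAM83D, a spindle protein that binds HMMR, held 7.74 and 8.71 FPKM, against 17.9 and 19.3 FPKM in controls, at -1.09 ± 0.07 (adjusted p = 1.53e-05), and CDCA3, a trigger of mitotic entry, was at -1.06 ± 0.05 (6.3e-06). Without glutamine PBK, a mitotic kinase, was at -0.67 ± 0.06 (9.15e-05) and CIT, the citron kinase of the midbody, at 0.67 ± 0.07 (0.000165). Between the deprivations TACC3, a partner of AURKA on spindle fibres, held 14.6 FPKM without glutamine, against 7.46 and 7.46 FPKM without glucose, at 0.89 ± 0.05 (4.1e-05). PLK4, the kinase that starts centriole copying, held 11.7 FPKM without glutamine, against 23.5 and 22.9 FPKM without glucose, at -0.93 ± 0.06 (6.43e-05).

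A list of 18 genes held further CENP proteins of the centromere and MIS12, DSN1, NSL1 and PMF1 of the kinetochore. Of the 18, 4 fell and 4 rose without glucose, with a median of 0.02. These counts are near the shares of all genes. With the GC and length trend removed 3 fell and 8 rose. CENPH rose at 0.54 ± 0.04 (adjusted p = 4.69e-05) and CENPW fell at -0.59 ± 0.05 (6.06e-05). Without glutamine 11 fell and 1 rose, though after scaling to the total 1 fell and 1 rose. CENPW was at -0.91 ± 0.06 (4.18e-05) and CENPU at -0.51 ± 0.05 (0.000208). Between the deprivations 10 were lower without glutamine and 0 higher, against 2 and 0 after scaling to the total, beside 22.0% of all genes and 43.7% of abundant genes lower. The largest were PMF1 at -0.82 ± 0.06 (8.03e-05) and CENPH at -0.71 ± 0.05 (9.45e-05).

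Of 17 subunits and partners of the anaphase-promoting complex, 11 fell and 2 rose without glucose and 14 fell and 1 rose without glutamine, against 3 and 1, and 1 and 3, after scaling to the total. UBE2S, which extends the ubiquitin chains that UBE2C begins, held 44.3 and 51.3 FPKM without glucose, against 84.0 and 85.4 FPKM in controls, at -0.82 ± 0.07 (4.5e-05). CDC26 was at -0.71 ± 0.06 (6.57e-05) without glucose and -0.76 ± 0.08 (0.000154) without glutamine, and ANAPC13 at -0.59 ± 0.07 (0.000294) without glutamine. Of 12 cohesin genes 5 fell and 5 rose without glucose and 6 fell and 3 rose without glutamine, against 0 and 2, and 0 and 3, after scaling to the total. STAG2, a cohesin subunit, held 53.0 FPKM without glutamine, against 82.4 and 80.7 FPKM without glucose, at -0.61 ± 0.05 (0.000127).

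A list of 13 held genes of the DREAM and MuvB-MYB complexes and also E2F7 and E2F8, which are not subunits of them. Of the 13, 3 fell and 2 rose without glucose and 5 fell and 1 rose without glutamine. The balance of these counts turned to 0 and 2 in both after scaling to the total, and to 2 and 5, and 1 and 4, with the GC and length trend removed. RBL2 (p130) and RBL1 (p107), pocket proteins of the repressing complex, rose without glucose at 0.46 ± 0.05 (adjusted p = 0.00014) and 0.45 ± 0.04 (0.000105). LIN9 and LIN52, subunits of MuvB, fell without glutamine at -0.35 ± 0.07 (0.00366) and -0.34 ± 0.07 (0.00356). Of 9 genes that hold back mitotic entry or keep CDK1 substrates phosphorylated, 4 fell and 4 rose without glucose and 4 fell and 1 rose without glutamine, against 1 and 2, and 0 and 2, after scaling to the total. CDKN1A, the CDK inhibitor p21, held 2.99 and 3.60 FPKM without glucose and 6.74 FPKM without glutamine, against 6.22 and 4.85 FPKM in controls, and was lower without glucose at -0.60 ± 0.11 (0.00241). It was higher without glutamine than without glucose at 0.85 ± 0.14 (0.00175). WEE1, the kinase that inhibits CDK1, rose without glucose at 0.40 ± 0.04 (0.000151). MASTL, the Greatwall kinase, was lower without glutamine than without glucose at -0.59 ± 0.07 (0.000383).

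A list of 18 genes of transport kinesins held motors that carry cargo outside mitosis and the non-motor subunits KLC1, KLC2 and KIFAP3. Of the 18, 3 fell and 3 rose without glucose, with a median of -0.06. Without glutamine 2 fell and 6 rose, with a median of 0.11. After scaling to the total 1 fell and 1 rose without glucose and 0 fell and 8 rose without glutamine, and with the GC and length trend removed 7 fell and 2 rose without glucose and 3 fell and 4 rose without glutamine. KIF1A, a carrier of vesicles in neurons, held 2.67 and 3.09 FPKM without glucose and 3.10 FPKM without glutamine, against 1.53 and 1.32 FPKM in controls. KIF1C fell without glucose at -0.53 ± 0.04 (adjusted p = 3.22e-05). Beside them, the 10 mitotic kinesins had medians of -0.43 without glucose and -0.32 without glutamine. Between the deprivations the medians lay close together, at 0.19 for the 18 and 0.14 for the 10 mitotic kinesins.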

How the data were processed

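Total RNA of 95D cells was sequenced in paired reads after removal of ribosomal RNA, per the labels' protocols. HISAT2 2.0.5 and StringTie were used on hg38, per the submitters' processing notes, and no source used here gives the annotation or strand setting. The authors' deposited values per gene were read as FPKM. No header names the unit, which was inferred from fractional values, from totals of 493129 to 571208 per library and from steps of whole reads in single-exon genes. In the file for glutamine deprivation, 1 value column is headed as glucose deprivation replicate 2. That column was mapped to no sample and not used, which left 5 of the 6 labelled libraries. Another deposited table held the same values and was not used.

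FPKM were divided by factors of a trimmed mean of log ratios (30% of ratios and 5% of abundances trimmed at each end), which were 1.01 and 0.979 for glucose deprivation, 1.08 for glutamine deprivation and 0.960 and 0.971 for controls. The 16600 genes that reached 1 FPKM in any library were tested with limma (3.58.1, under R 4.3.3) on values of log2(FPKM + 1), which understates changes of low genes. The fit held all 5 libraries with 1 coefficient per group (2 residual degrees of freedom) and a variance trend over inferred reads. Steps were tested on simulated data. Gene positions, exon length and GC came from GENCODE release 29. The motif search and figures used Python 3.11.15.

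The mitotic genes, the related lists and the tests were chosen with earlier results of these data known. Values in every library are given, per role, for the most abundant gene and the highest and lowest fold change in each comparison, and for a few others chosen after their values were seen (FOXM1, PTTG1, SMC2 and NDC80). In the related lists at most the 2 largest called changes per comparison are named. Apart from these, levels of the condensin subunits NCAPD2, NCAPD3, NCAPG2 and NCAPH2 are given, also chosen after their values were seen.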

Additional observations from a re-analysis of the deposited data

How the results depend on the processing

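Of 2912 fold changes of mitotic genes recomputed under alternatives, 2592 kept their sign and their side of the threshold, 219 lost their call, 49 gained one and 52 changed sign. The cause of these changes was not tested. Without glucose 53 genes fell in the reported fit and 42 or more in all alternatives except scaling to the total, where 28 fell and 0 rose, with a median of -0.40 (5498 genes called). Without glutamine scaling to the total left 5 lower genes and a median of -0.16, and between the deprivations 0 lower genes and a median of 0.35 (4263 genes called). Values as deposited gave medians of -0.47 without glucose, -0.30 without glutamine and 0.26 between the deprivations, the upper quartile -0.42, -0.29 and 0.23, and removal of a GC and length trend, chosen after seeing the data, -0.45, -0.29 and 0.22. The 1 rise without glucose, NUF2, was lost (0 genes) without a filter on low values and with a variance trend over the mean level. No filter left 5 lower genes between the deprivations. With a filter of a mean of at least 5 FPKM, which tests fewer genes, 5408, 5262 and 4609 genes were called.

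The replicate numbers are not known to pair libraries, and deviations of same-numbered libraries correlated at -0.02 over genes and -0.20 over abundant ones. With a replicate block 8797, 7538 and 6355 genes were called, 53 mitotic genes fell and 0 rose without glucose, 45 fell and 4 rose without glutamine, and SPC25 came to -0.059 between the deprivations. The crossed pairing, chosen after seeing the data, called 9615, 8674 and 7451 genes, with CENPF at 0.00050 without glutamine and ASPM at 0.027 between the deprivations. Leaving out 1 library in turn gave 5678 to 9067 called genes, 0 to 1 higher mitotic genes and a median of -0.54 to -0.48 without glucose, 5508 to 8426 called genes without glutamine, and a median of 0.12 to 0.15 between the deprivations. There ASPM ran between -0.10 and 0.024, UBE2C between -0.00060 and 0.18, SPC25 between -0.080 and 0.082 and KIF18A between -0.029 and 0.053.

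Of the 52 values that changed sign, 10 were of called results, of which scaling to the total gave 8 without glutamine and 1 between the deprivations, and 0 passed in the alternative. As deposited, NCAPG came to 0.037 without glucose, CDC25C to 0.093, CENPF 0.10, KIF4A 0.047 and TPX2 0.038 without glutamine, and ASPM to 0.085, PRC1 0.081, SMC4 0.066 and NCAPH 0.016 between the deprivations. With the upper quartile, NCAPG came to 0.085 without glucose, CDC25C to 0.10, CENPF 0.11, KIF4A 0.059 and TPX2 0.051 without glutamine, and ASPM to 0.050, PRC1 0.046 and SMC4 0.030 between the deprivations. With the total, NCAPG came to 0.10 without glucose. Without glutamine CDC25C came to 0.23, CENPF 0.25, KIF4A 0.19 and TPX2 0.19, and the called genes NUF2 to 0.025, CENPE 0.089, KIF14 0.012, KIF18A 0.050, KIF22 0.034, TOP2A 0.025, SMC4 0.051 and NCAPH 0.081. Between the deprivations SPC24 came to 0.059, KIF20B 0.033, KIF23 0.070, ASPM 0.17, PRC1 0.16, SMC4 0.15, NCAPH 0.096 and the called gene ANLN to 0.013. After removal of the GC and length trend, NCAPG came to 0.066 without glucose, CDC25C to 0.11, KIF4A 0.014, TPX2 0.040 and the called gene NUF2 to 0.010 without glutamine, and ASPM to 0.034 and SMC4 0.038 between the deprivations.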
